A study of Mus musculus with 7 samples.

Results

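Notch receptors and ligands sit in the membranes of neighboring cells. A ligand pulls on a receptor, the receptor is cut by an ADAM protease and then by gamma-secretase, and the released intracellular domain enters the nucleus, where it joins the DNA-binding protein RBPJ and switches on genes such as Hes1 and Hey1, which encode transcriptional repressors. In epidermis this pathway is known for guiding keratinocytes from the basal layer into differentiation, and in blood vessels for arterial identity and for the choice between tip and stalk cells. The 10 genes described here were chosen by name from this pathway, out of 55450 genes in the deposited count table. They are 4 receptors (Notch1, Notch2, Notch3 and Notch4), 3 ligands (Jag1, Jag2 and Dll4), the mediator Rbpj and 2 targets (Hes1 and Hey1).

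The RNA came from dorsal skin of male C57BL/6 mice aged 24 months and was sequenced in bulk, with 1 library per mouse. Of the 7 mice, 4 were treated for 5 days with the vehicle DMSO (mice 480, 481, 482 and 483) and 3 with 5 μM ABT-263 in that vehicle (mice 476, 477 and 478). ABT-263, also called navitoclax, inhibits anti-apoptotic Bcl-2 family proteins and is used to remove senescent cells. In both groups hair was removed by clipping and a depilatory lotion, the skin was cleansed with ethanol, and the treated area was kept under a semi-occlusive dressing. Whole skin holds epidermis, vessels, dermis, muscle and immune cells together, so fewer cells of a type and less RNA per cell cannot be told apart here.

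Total counts ran from 20344364 to 26824123 in the DMSO libraries and from 27325963 to 43562330 in the ABT-263 libraries, so every ABT-263 library was larger. Levels are given in CPM, the count of a gene scaled to the size of its library, with TMM factors that allow for differences in composition. The tissue label was checked against keratinocyte genes: 8 basal markers summed to between 14049 and 36209 CPM over the 7 mice. Markers of skeletal muscle summed to between 26647 and 69984 CPM. The labels name no batch. DMSO-treated mouse 481 stood apart in 11 hair follicle genes, whose sum was 2436 CPM there and 136 to 150.2 CPM in the other DMSO-treated mice. Treatments were compared by the two-sided quasi-likelihood test of edgeR, and p-values were adjusted by the Benjamini-Hochberg method across the 17959 genes that its expression filter kept. A gene is said to have risen or fallen where its adjusted p-value was under 0.05.

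All 10 members passed the expression filter. After ABT-263, Notch2 and Notch4 rose, Hes1 fell, and the other 7 members did not pass the threshold. These 3 genes make 30% of the members, against 24.2% of all genes tested, so the share called was close to the background. In the higher direction, 2 members stood against 12.4% of all genes tested, and in the lower direction 1 member stood against 11.7%. The median log2 fold change of the members was 0.20, and that of all genes tested was 0.00223. The DESeq2 Wald test called 4 members, the same 3 and Dll4. The ABT-263-treated mice did not overlap the DMSO-treated mice in 6 members (Notch1, Notch2, Notch4, Dll4, Hes1 and Hey1), where 37.1% of all genes tested were without overlap. Fits that dropped a single mouse called 1 to 3 members, with 1 called without mouse 476, 478, 481, 482 or 483.

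**Figure D1:**
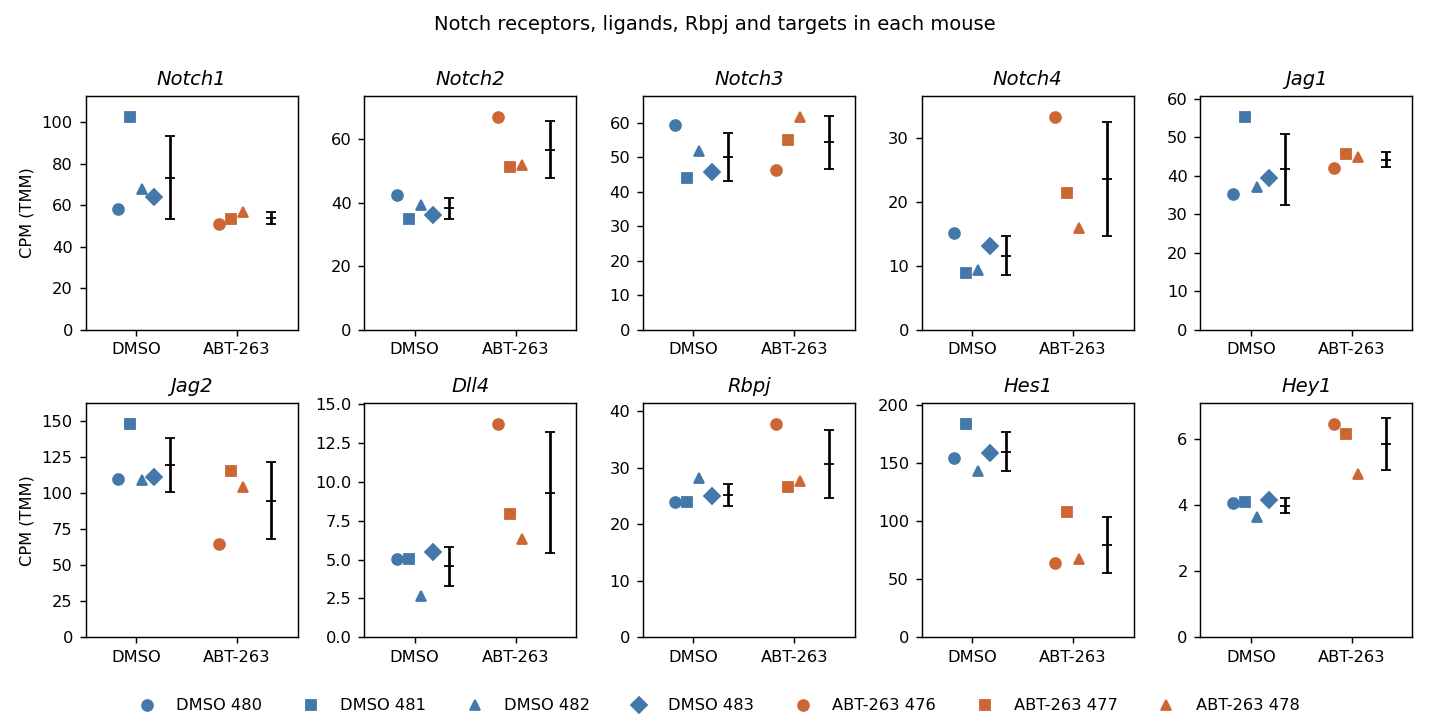
Level of each of the 10 members in CPM (vertical axes, each from 0) in the 4 DMSO-treated and 3 ABT-263-treated mice, 1 symbol per mouse, with the mean and SD of each group in black. Notch2 and Notch4 lie higher and Hes1 lower in all 3 ABT-263-treated mice, and mouse 481 is the highest DMSO-treated mouse for Notch1, Jag1 and Jag2.

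Among the receptors, Notch2 and Notch4 rose, while Notch1 and Notch3 did not pass the threshold. NOTCH1 is the receptor best known in keratinocytes, NOTCH2 is widely expressed, NOTCH3 is typical of smooth muscle and pericytes, and NOTCH4 is largely endothelial. Notch2 (chromosome 3, 98013527 to 98150361) was at 42.5, 34.97, 39.1 and 36.2 CPM in DMSO-treated mice 480 to 483 and at 67.0, 51.1 and 51.7 CPM in ABT-263-treated mice 476 to 478. The lowest ABT-263-treated mouse was above the highest DMSO-treated mouse. The DMSO-treated mice averaged 38.2 ± 3.36 CPM (SD, n = 4), and those given ABT-263 averaged 56.6 ± 8.98 CPM (SD, n = 3). This was a log2 fold change of 0.57 with a standard error of 0.14, and edgeR gave an adjusted p of 0.0252. Gm42820, a gene annotated on the same strand, shares 5.02% of the exon bases of Notch2, so a small part of its count is uncertain. Left out in turn, 5 of the 7 mice (476, 478, 481, 482 and 483) each ended the call, with adjusted p-values up to 0.0738 from edgeR and log2 fold changes between 0.44 and 0.66.

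Notch4 (chromosome 17, 34564268 to 34588503) was at 15.1, 8.81, 9.34 and 13.1 CPM after DMSO and at 33.3, 21.4 and 15.9 CPM after ABT-263. The groups did not overlap, but mouse 478 lay just above DMSO-treated mouse 480, and mouse 476 was the highest. The DMSO-treated mice averaged 11.6 ± 3.02 CPM (SD, n = 4), and those given ABT-263 averaged 23.5 ± 8.87 CPM (SD, n = 3). The log2 fold change was 1.02 with a standard error of 0.29, and edgeR gave an adjusted p of 0.0375. It was 0.70 without mouse 476 (adjusted p = 0.114 from edgeR), and leaving out mouse 477, 481, 482 or 483 also ended the call. Blood endothelial markers moved in the same direction: 8 of 12 rose and 0 fell, where 12.4% of all genes tested rose. Their summed level was 326 to 659 CPM after DMSO and 824 to 1046 CPM after ABT-263. As a percentage of that sum, a measure chosen after the values were seen, Notch4 made 2.00% to 2.697% after DMSO and 1.87% to 3.18% after ABT-263, ranges that overlap. The part of endothelial RNA in the rise of Notch4 was not tested.

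The start regions of the 2 receptors that rose are shown to set their sequences side by side. The bases run 5′ to 3′ on the + strand of GRCm38.p6 (RefSeq), up to the base before the first annotated exon, and capitals mark matches to CACGNG or CACNAG, the sites that HES and HEY repressors are known to bind. The Notch2 stretch is chr3:98013288-98013526 and the Notch4 stretch is chr17:34564045-34564267.
Notch2: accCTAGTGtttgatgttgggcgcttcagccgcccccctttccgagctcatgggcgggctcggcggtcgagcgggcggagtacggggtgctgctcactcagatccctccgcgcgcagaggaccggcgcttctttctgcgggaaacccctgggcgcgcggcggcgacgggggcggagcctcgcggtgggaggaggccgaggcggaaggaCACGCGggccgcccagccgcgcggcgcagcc
Notch4: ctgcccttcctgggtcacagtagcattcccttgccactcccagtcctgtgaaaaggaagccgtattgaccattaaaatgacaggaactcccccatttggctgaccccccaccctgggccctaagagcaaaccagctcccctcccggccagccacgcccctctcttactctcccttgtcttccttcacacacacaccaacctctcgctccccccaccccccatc
The Notch2 stretch holds 1 match to each motif, and the Notch4 stretch holds none. Both motifs were searched on both strands of the 300 bases around each start, and a site CACGAG would match both. Of 32851 such windows in the genome, CACGNG was found in 27.5% and CACNAG in 42.5%. Windows were available for 8 of the members, all but the targets Hes1 and Hey1. Of these 8, 5 held CACGNG (Notch2, Notch3, Jag1, Jag2 and Dll4) and 4 held CACNAG (Notch1, Notch2, Notch3 and Dll4). These letters describe the windows and were not measured as binding sites.

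Notch1 (chromosome 2, 26457903 to 26516663) was at 58.1, 103, 67.9 and 64.0 CPM after DMSO and at 51.0, 53.2 and 56.9 CPM after ABT-263. Every ABT-263-treated mouse lay below every DMSO-treated mouse, and mouse 481 was far above the other DMSO-treated mice. The log2 fold change of -0.45 had a 95% interval from -0.91 to 0.02, and at an adjusted p of 0.136 in edgeR it was not called. It was -0.24 without mouse 481, in which hair follicle genes were high. Notch3 (chromosome 17, 32120820 to 32166852) was at 59.2, 43.8, 51.7 and 45.7 CPM after DMSO and at 46.3, 54.8 and 61.7 CPM after ABT-263, with groups that overlapped throughout. Its log2 fold change of 0.11 (95% interval -0.24 to 0.47, adjusted p = 0.610 from edgeR) was not called. Of 10 pericyte and smooth muscle markers, 2 (20%) rose and 0 fell, where 24.2% of all genes tested were called.

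**Figure D2:**
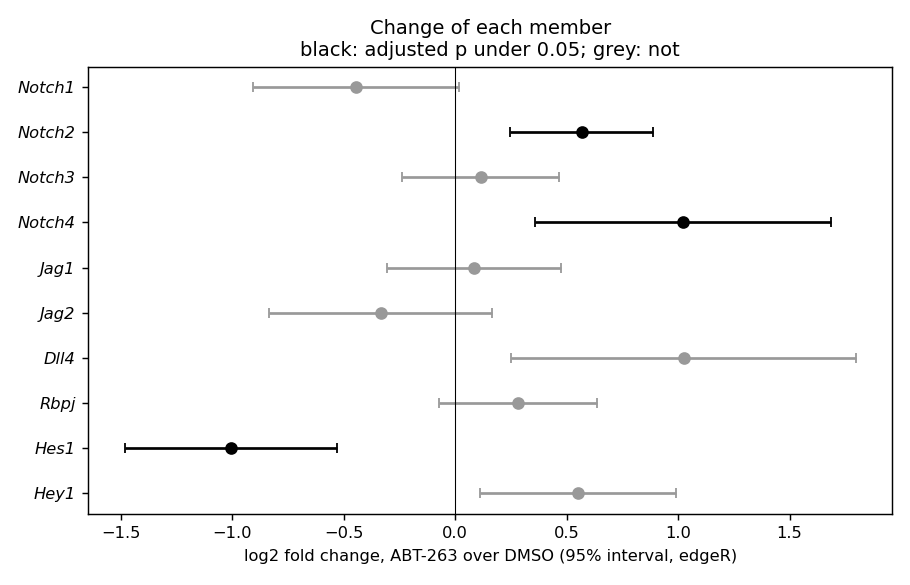
Log2 fold change of each member after ABT-263 relative to DMSO (horizontal axis) with its 95% interval from the edgeR fit of all 7 mice; black points passed an adjusted p-value of 0.05. Notch2 and Notch4 lie to the right of 0 and Hes1 to the left, while the intervals of Notch1, Notch3, Jag1, Jag2 and Rbpj include 0.

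Among the ligands no gene passed the threshold in edgeR. JAG1 and JAG2 are the ligands of epidermis, and JAG1 also acts in vessels, whereas DLL4 is the ligand of sprouting and arterial endothelium. Dll4 (chromosome 2, 119325784 to 119335962) was at 5.03, 5.06, 2.67 and 5.46 CPM after DMSO and at 13.7, 7.91 and 6.32 CPM after ABT-263. The 3 ABT-263-treated mice were above all DMSO-treated mice, and mouse 476 was the highest. The mean was 4.56 ± 1.27 CPM (SD, n = 4) and 9.31 ± 3.88 CPM (SD, n = 3). Its log2 fold change of 1.02 (standard error 0.34, 95% interval 0.25 to 1.80) had an adjusted p-value of 0.0582 from edgeR. With every gene that had a count tested, it passed in edgeR (adjusted p = 0.0452) and in the DESeq2 Wald test (adjusted p = 0.0322). Without mouse 476 the log2 fold change was 0.65. Counts of Dll4 were between 52 and 133 per DMSO library and between 294 and 383 per ABT-263 library. As a percentage of the summed blood endothelial markers, Dll4 made 0.572% to 1.55% after DMSO and 0.741% to 1.31% after ABT-263, with overlap. Summed arterial markers, a separate list, were at 142 to 158.9 CPM after DMSO and 158.3 to 187 CPM after ABT-263. Shares of that arterial sum were not computed for Dll4 or Notch4, so the overlap holds for the blood endothelial list only. The part of endothelial RNA in the level of Dll4 was not tested. The bases before its start, chr2:119325534-119325783 on the + strand, are given for comparison with those of Notch4, again with CACGNG and CACNAG in capitals.
Dll4: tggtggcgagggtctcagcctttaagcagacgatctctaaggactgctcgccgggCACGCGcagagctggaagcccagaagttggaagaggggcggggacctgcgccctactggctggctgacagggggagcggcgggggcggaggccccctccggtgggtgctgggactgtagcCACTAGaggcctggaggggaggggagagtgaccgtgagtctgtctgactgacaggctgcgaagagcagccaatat
The 250 bases of Dll4 hold 1 match to each motif where those of Notch4 hold none.

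Jag1 (chromosome 2, 137081456 to 137116644) was at 35.3, 55.3, 37.0 and 39.3 CPM after DMSO and at 42.0, 45.7 and 44.8 CPM after ABT-263. Mouse 481 was the highest of all mice, and the 3 ABT-263-treated mice lay between it and the other DMSO-treated mice. Its log2 fold change was 0.08 (95% interval -0.31 to 0.47, adjusted p = 0.750 from edgeR). Its sign was reversed, to -0.063, after removal of trends on exon length and GC content. Jag2 (chromosome 12, 112907819 to 112929776), the most abundant ligand, was at 109.5, 148, 108.97 and 111 CPM after DMSO and at 64.5, 115 and 104 CPM after ABT-263. Mouse 481 was again the highest and mouse 476 the lowest. The log2 fold change was -0.33 (95% interval -0.84 to 0.17, adjusted p = 0.288 from edgeR), and -0.11 without mouse 476. The summed hair follicle level of mouse 481 stands beside the high Notch1, Jag1 and Jag2 of that mouse. Mouse 481 also had the lowest summed markers of blood endothelium (326 CPM), macrophages (360 CPM) and neutrophils (100.4 CPM). ABT-263-treated mouse 478 had the next highest hair follicle sum, 513 CPM. Its Notch1 was at 56.9, its Jag1 at 44.8 and its Jag2 at 104 CPM. The part of these cell types in the levels of Notch1, Jag1 and Jag2 was not tested.

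The mediator Rbpj (chromosome 5, 53466152 to 53657362), which encodes the DNA-binding partner of all 4 receptors, was at 24.0, 23.9, 28.1 and 24.9 CPM after DMSO and at 37.7, 26.7 and 27.8 CPM after ABT-263. Only mouse 476 lay above the highest DMSO-treated mouse. The log2 fold change was 0.28 (95% interval -0.07 to 0.64, adjusted p = 0.209 from edgeR), and 0.12 without mouse 476. Of the 8 members with a start window, only Rbpj held TGGGAA, the core that RBPJ itself binds, which was found in 25.6% of all windows. The targets Hes1 and Hey1 had no window and were not searched. The stretch shown for that reason is chr5:53590096-53590213 on the + strand, which lies before a RefSeq start inside the annotated gene and ends before the next annotated exon. TGGGAA is in capitals, 149 bases before that start. A further match in the same window, on the - strand 65 bases before the start, lies past the end of the stretch.
Rbpj: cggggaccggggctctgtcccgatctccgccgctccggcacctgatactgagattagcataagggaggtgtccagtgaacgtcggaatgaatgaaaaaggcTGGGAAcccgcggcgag
The annotation also lists 2 processed pseudogenes of Rbpj, copies of its spliced RNA elsewhere in the genome. Rbpj-ps1 had no count in any library. Rbpj-ps3 had 2, 4, 3 and 5 counts after DMSO and 26, 21 and 88 counts after ABT-263, and rose by 2.85 on the log2 scale (adjusted p = 0.0139 from edgeR). Its reads come from sequence close to that of Rbpj, so their assignment is uncertain, and they are few beside the 548 to 1292 counts of Rbpj itself.

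Of the 2 targets, Hes1 fell and Hey1 did not pass the threshold. Hes1 (chromosome 16, 30064384 to 30067796), the best known Notch target and also a target of other pathways, was at 155, 183, 143 and 159 CPM after DMSO and at 63.9, 108 and 67.5 CPM after ABT-263. All ABT-263-treated mice were below all DMSO-treated mice, and mouse 477 came closest to them. The DMSO-treated mice averaged 160.0 ± 16.9 CPM (SD, n = 4), and those given ABT-263 averaged 79.7 ± 24.3 CPM (SD, n = 3). The log2 fold change was -1.01 with a standard error of 0.21, and edgeR gave an adjusted p of 0.0148. The call held in 6 of the 7 fits that left out 1 mouse and was lost without mouse 478 (log2 fold change -0.89, adjusted p = 0.0568 from edgeR). Hey1 (chromosome 3, 8663359 to 8667256), a target best known in endothelium, was at 4.05, 4.09, 3.64 and 4.15 CPM after DMSO and at 6.44, 6.15 and 4.94 CPM after ABT-263. The groups did not overlap. Its log2 fold change of 0.55 (95% interval 0.11 to 0.99) had an adjusted p-value of 0.0688 from edgeR and did not pass. The Hes1 interval, from -1.48 to -0.53, and the Hey1 interval lie on opposite sides of 0, and the difference between them was not tested.

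**Figure D3:**
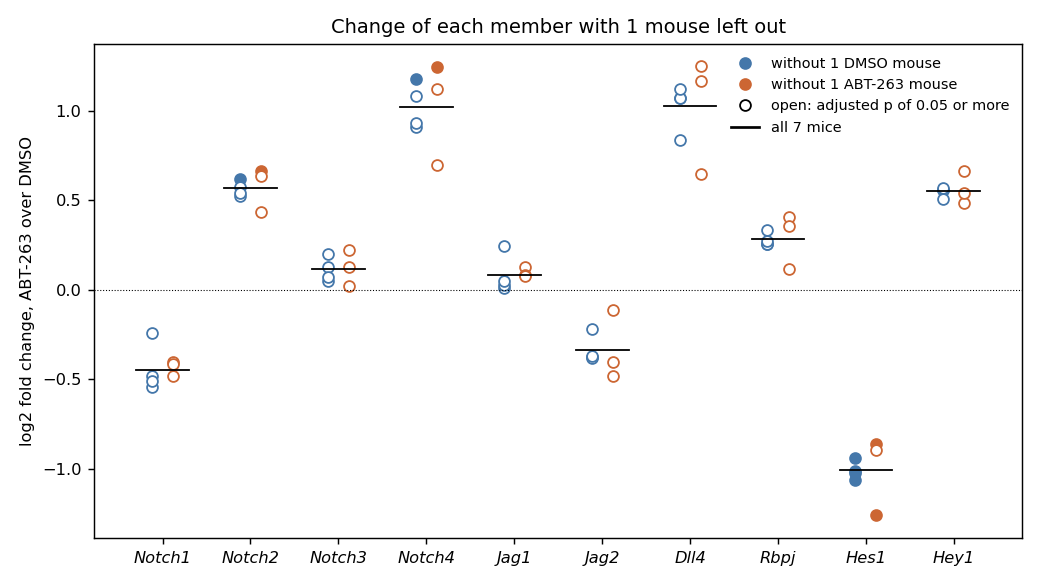
Log2 fold change of each member after ABT-263 (vertical axis) with all 7 mice (line) and with 1 mouse left out (points, blue for a DMSO-treated and orange for an ABT-263-treated mouse); filled points passed an adjusted p-value of 0.05 in edgeR. Hes1 stays between -1.26 and -0.86, and Notch4 and Dll4 are lowest without mouse 476, at 0.70 and 0.65.

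Levels of different genes were compared per kilobase of annotated exon. The length counts every annotated exon of a gene, not those of an expressed transcript, so the order of genes depends on it. In DMSO-treated skin, Hes1 was the highest member, at a median of 76.9 CPM per kilobase, followed by Jag2 at 15.8 and Jag1 at 6.55. Notch3 (6.02) and Notch1 (4.63) came next, then Notch2 (3.49), Rbpj (1.92), Notch4 (1.39), Dll4 (1.31) and Hey1 (1.25). The ranges of Jag1 and Notch3, of Notch3 and Notch1, of Notch4 and Dll4, and of Dll4 and Hey1 overlapped over the 4 mice, so these neighbors were not separated. After ABT-263 the median of Notch2 (4.80) was above that of Notch1 (3.74), in 3 of 3 mice. This order rests on the lengths used, 14232 bases for Notch1 and 10782 for Notch2. In CPM, Notch1 was above Notch2 in mouse 477 (53.2 against 51.1) and mouse 478 (56.9 against 51.7). In mouse 476 it was below (51.0 against 67.0). Hes1 remained the highest, at a median of 33.1 CPM per kilobase.

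**Figure D4:**
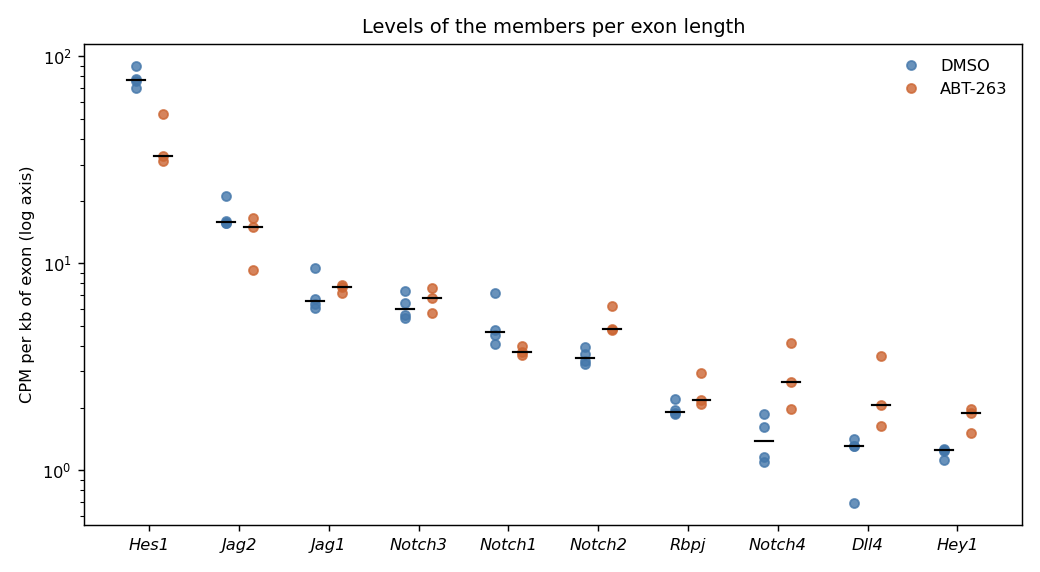
CPM per kilobase of exon (vertical log axis) for each member, ordered by its median in DMSO-treated skin, with 1 point per mouse and the median of each group as a bar. Hes1 lies above every other member in both groups, and Hey1 and Dll4 are lowest after DMSO.

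The make-up of the receptor pool followed from these levels, and its percentages depend on the same exon lengths. Notch2 made 19.1% to 22.9% of the summed receptor level per kilobase after DMSO and 26.1% to 31.6% after ABT-263, without overlap. Notch1 made 23.7% to 42.5% after DMSO and 18.2% to 21.7% after ABT-263, also without overlap. The share of Notch3 overlapped between groups, and so did that of Notch4, from 6.44% to 10.9% after DMSO and from 10.7% to 21.02% after ABT-263. Among the 3 ligands, Jag2 made 66.2% to 69.0% after DMSO and 46.2% to 62.6% after ABT-263. Dll4 made 3.05% to 5.88% after DMSO and 6.75% to 17.8% after ABT-263. Jag1 made 26.2% to 29.66% after DMSO and 29.68% to 36.0% after ABT-263. The values of 46.2%, 17.8% and 36.0% were those of mouse 476. In mice 477 and 478, Jag2 made 62.6% and 61.6%, and Dll4 7.77% and 6.75%. Shares within a pool depend on each other, and none of the 3 ligands was called in edgeR.

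Whether members of 1 role differed in their change was tested on the log2 ratio of their CPM, with 0.5 CPM added, over 6 pairs of receptors and 3 pairs of ligands. With 4 mice against 3, the smallest p-value an exact permutation test can give is 0.0286. After adjustment over 9 pairs, a lone pair at that value could not pass the threshold, however large its change. Passing would need most of the pairs to reach it together. None of the 9 pairs passed adjustment (exact permutation tests, two-sided, smallest adjusted p = 0.0857), and 3 were at the smallest unadjusted p of 0.0286. The adjusted test therefore cannot decide whether any given pair differed in its change. The log2 ratio of Jag2 to Dll4 went from 4.60 ± 0.41 (SD, n = 4) to 3.31 ± 0.97 (SD, n = 3). That of Jag1 to Jag2 went from -1.52 ± 0.09 to -1.05 ± 0.38, and that of Notch2 to Notch3 from -0.38 ± 0.07 to 0.06 ± 0.41. Without mouse 476 the difference between groups went from -1.29 to -0.74 for Jag2 to Dll4, from 0.47 to 0.25 for Jag1 to Jag2, and from 0.44 to 0.21 for Notch2 to Notch3. The ratio of Notch1 to Notch2 dropped by 0.96 on the log2 scale, with no overlap between groups (exact permutation test, p = 0.0571, adjusted p = 0.0857).

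The other genes of the pathway were listed by role, 58 in all, of which 56 were tested. Of these, 13 (23.2%) passed the threshold, 7 higher and 6 lower, again close to the 24.2% of all genes tested. Their median log2 fold change was -0.08. After removal of trends on exon length and GC content, 10 passed, 4 higher and 6 lower. Without mouse 478, or without mouse 482, 8 passed.

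Of 19 genes that process ligands and receptors, 2 rose and 1 fell, so 15.8% were called against 24.2% of all genes tested. Adam10, the protease of the first receptor cut after ligand binding, was at 38.9 to 42.4 CPM after DMSO and at 53.2 to 81.3 CPM after ABT-263. It rose by 0.72 on the log2 scale (adjusted p = 0.0158 from edgeR). Adam17, a related protease, rose by 0.76 on the log2 scale, a call lost without mouse 476, 478, 482 or 483. Neurl1a, which encodes a ubiquitin ligase that can act on Notch ligands, fell by 1.30 on the log2 scale (adjusted p = 0.0177 from edgeR), a call lost without mouse 476 or 482, and mouse 480 was at 77.5 CPM where the other DMSO-treated mice were at 163 to 166 CPM. A same-strand gene shares 9.47% of its exon bases.

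Of 18 nuclear cofactors, 2 rose and 4 fell, so 33.3% were called against 24.2% of all genes tested. Maml2, a coactivator of the RBPJ complex, went from between 29.3 and 43.9 CPM to between 13.4 and 16.5 CPM, and fell by 1.27 on the log2 scale (adjusted p = 0.00628 from edgeR). Its relative Maml1 rose by 0.48 and Maml3 had a log2 fold change of -0.58 that did not pass. Crebbp, an acetyltransferase of many complexes (log2 fold change -1.16), Ncor1, a corepressor (-1.02), and Kdm5a, a histone demethylase (-1.01), fell as well. Maml2, Crebbp, Ncor1 and Kdm5a each kept the call with every single mouse left out. Tle1, a corepressor of HES proteins, rose by 0.44 (adjusted p = 0.0490 from edgeR), but of the 7 fits that dropped a single mouse Maml1 passed in 0 and Tle1 in 1, the fit without mouse 476. With every mouse kept, both lost the call with every gene tested (adjusted p = 0.0685 for Maml1 and 0.0913 for Tle1) and with length and GC trends removed, and Tle1 also in thinned counts and among protein-coding genes. Ep300, a close relative of Crebbp, was not called, with a log2 fold change of 0.11 (95% interval -0.18 to 0.40).

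Of 11 genes of turnover and inhibition, 3 rose and 1 fell, so 36.4% were called against 24.2% of all genes tested. Fbxw7, the ubiquitin ligase adaptor that sends active NOTCH to degradation, went from between 83.4 and 96.5 CPM to between 31.1 and 46.5 CPM, and fell by 1.28 on the log2 scale (adjusted p = 0.00623 from edgeR). Numb, an inhibitor of Notch at the membrane, rose by 0.83, and Nedd4, a ubiquitin ligase of many membrane proteins, by 1.44. Fbxw7 and Nedd4 kept the call with every single mouse left out, and Numb lost it without mouse 478. Dtx3l rose by 1.33, with 43.8 CPM in mouse 476 but 13.2 CPM in mouse 477 and 17.6 CPM in mouse 478. It was called in 1 of the 7 fits that dropped a single mouse, the fit without mouse 477, and its log2 fold change was 0.65 without mouse 476. With every mouse kept, it also lost the call with every gene tested, with length and GC trends removed, and in limma (adjusted p = 0.0609, 0.0558 and 0.0652).

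Of Dll1, Dlk1 and Dlk2, listed as other ligands, none passed in edgeR or in DESeq2 (0 of 3, with 0 at an unadjusted p under 0.05). Their log2 fold changes were -0.13, -0.54 and -0.21. Dll3 had at most 4 counts in a library and was not tested. Of Hes6, Hes7, Hey2, Heyl and Nrarp, listed as other targets, none passed in edgeR or in DESeq2, with 1, Hes6, at an unadjusted p under 0.05. Whether these genes respond to Notch in this skin was not tested. Hes6 was at 26.7 to 71.0 CPM after DMSO and at 21.3 to 25.1 CPM after ABT-263, without overlap, and its log2 fold change was -0.88 at an adjusted p of 0.0792 in edgeR. Mouse 481 was at 71.0 CPM and the other DMSO-treated mice at 39.2 CPM or less, and without mouse 481 the log2 fold change was -0.51. Nrarp, a feedback inhibitor that NOTCH induces, was at 81.8 to 150.3 CPM and 72.7 to 148 CPM, a log2 fold change of -0.02 (95% interval -0.66 to 0.63). A gene on the opposite strand, Gm38287, covers 79.4% of its exon bases. Hes7 and Hey2 were at 2.02 CPM or less in every library. Hes5 had at most 5 counts in a library and was not tested.

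**Figure D5:**
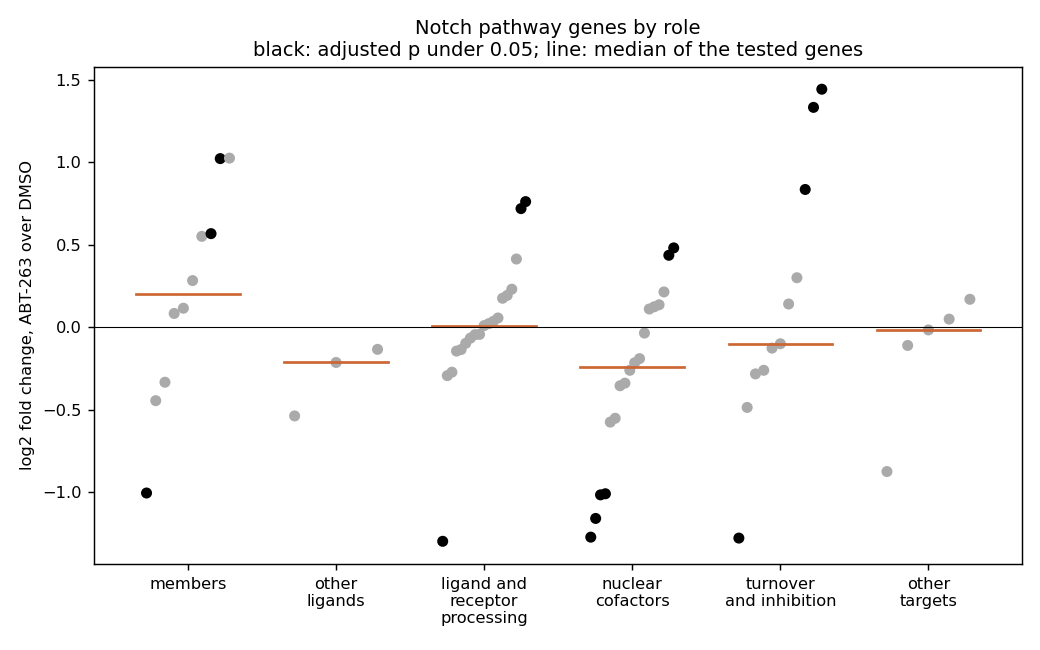
Log2 fold change after ABT-263 (vertical axis) of every tested gene of the pathway, grouped by role, with the median of each group as a line; black points passed an adjusted p-value of 0.05. Risers and fallers stand in the same groups among nuclear cofactors, processing genes and turnover genes.

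Markers of the cell types that use this pathway, and of others in skin, were counted in the same fit. In that fit 24.2% of all genes tested were called, 12.4% higher and 11.7% lower. The share called was 25% of basal and skeletal muscle genes and 20% of suprabasal and hair follicle genes, close to that background. It was 14.3% of arterial, 37.5% of fibroblast, 62.5% of macrophage and 50% of neutrophil genes tested. Of 8 basal keratinocyte genes 1 rose and 1 fell, and of 10 suprabasal genes 2 rose and 0 fell, with summed suprabasal levels of 13348 to 44807 CPM after DMSO and 7872 to 29264 CPM after ABT-263. Of 7 arterial genes 1 rose. Of 10 hair follicle genes tested 2 fell, of 8 fibroblast genes 3 rose, of 8 macrophage genes 5 rose, and of 6 neutrophil genes tested 3 rose. The summed hair follicle level was 97.2 to 513 CPM after ABT-263. After DMSO it was 2436 CPM in mouse 481 but 136 to 150.2 CPM in the other mice. Summed neutrophil markers were at 100.4 to 1822 CPM after DMSO and at 5098 to 8377 CPM after ABT-263, highest in mouse 476. That mouse also had the most Notch2, Notch4, Dll4, Rbpj and Hey1. Its summed markers of blood endothelium (1046 CPM), arteries (187 CPM), macrophages (2890 CPM) and T cells (69.8 CPM) were the highest too. Its basal (14049 CPM) and suprabasal (7872 CPM) sums were the lowest of all mice. Fibroblast, pericyte and smooth muscle, and adipocyte sums were highest in mouse 478. Of 8 skeletal muscle genes 2 fell, from summed levels of 34574 to 69984 CPM to 26647 to 36103 CPM. Of 8 T cell genes and 6 adipocyte genes, none passed in edgeR, with 0 and 2 at an unadjusted p under 0.05 and 0 and 1 called by DESeq2. No marker was at 0 in all libraries. The part of these cell types in the changes of the members was not tested.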

How the data were processed

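RNA from dorsal skin of 7 mice was sequenced (4 after DMSO, 3 after ABT-263). The authors aligned reads to mm10 with STAR 2.7.9a and deposited raw counts per Ensembl gene, made with featureCounts (Subread 1.6.2) from uniquely aligned proper pairs on the same strand, without mitochondrial genes. They also deposited a DESeq2 1.23.10 variance-stabilizing transform of the counts, close to log2, which were used here in 1 alternative. Columns were matched to samples by title. Precision is limited by the number of mice, and p-values weigh the difference between groups against the spread between these libraries.

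Symbols, positions and exon lengths came from GENCODE M21 on GRCm38 (the assembly mm10), which held 55190 of 55450 identifiers. That is not the Ensembl build the authors used. Counts were fitted with edgeR 4.0.16 in R 4.3.3 (TMM, filterByExpr, robust quasi-likelihood), with a standard error taken as the log2 fold change over the square root of F. CPM divides counts by TMM-scaled library sizes. Exact permutation tests used scipy 1.17.1 and the size of the difference between means. The code was tested on simulated data. Alternatives were the DESeq2 1.42.0 Wald test (no filter on low counts, no outlier filter), DESeq2 size factors, every gene with a count, at least 10 counts in every library, protein-coding genes only, counts thinned to 20344364 per library, length and GC trends removed with mgcv 1.9.3, limma 3.58.1 on the variance-stabilized values, and leaving out each mouse. The members and lists were chosen with earlier results of these data known. The fit without mice 481 and 476 together, the ratio to endothelial markers and the alternatives for single pathway genes were chosen after values were seen. The genes named are the members, the other pathway genes past the threshold (up to 12 in each direction, by p-value), all tested genes of the lists of other ligands and other targets, and pseudogenes of members; further genes named for comparison were chosen after their values were seen. Of the hair follicle list, Krt85 was not matched to the annotation. Start windows came from RefSeq on GRCm38.p6, with 250 bases before and 50 after each start.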

Additional observations from a re-analysis of the deposited data

Results flagged for a closer look

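In 43 measures (the members, the other named pathway genes and the summed marker lists), the 4 DMSO-treated mice were examined for 1 mouse far from the rest, taken as a gap that makes a larger part of the group's range (Dixon's ratio) than the 95% critical value. Chance flags about 1 in 20 such groups, or 2.15 here, and 6 were found. Groups of 3 were not examined. Jag2 was at 148 CPM in mouse 481 and at 108.97 to 111 CPM in the others (ratio 0.942). Dll4 was at 2.67 CPM in mouse 482 and at 5.03 to 5.46 CPM in the others (ratio 0.846). Neurl1a was at 77.5 CPM in mouse 480 and at 163 to 166 CPM in the others (ratio 0.966). Hey2 was at 2.02 CPM in mouse 481 and at 0.308 to 0.534 CPM in the others (ratio 0.868). Summed basal keratinocyte markers were at 31472 CPM in mouse 480 and at 18597 to 19737 CPM in the others (ratio 0.911). Summed hair follicle markers were at 2436 CPM in mouse 481 and at 136 to 150.2 CPM in the others (ratio 0.994).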

How the results depend on the processing

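The 3 members called passed under all 8 alternatives that kept every mouse, and 3 or 4 members passed there. Leaving out single mice had more effect: between 1 and 3 members passed, 1735 to 4169 of all genes tested (against 4342 with every mouse) and 8 to 13 other pathway genes. Without mice 481 and 476 together, 1692 genes, 0 members (2 at an unadjusted p under 0.05, by edgeR, the only tool run there) and 7 other pathway genes passed. Fewer mice entered these fits, but fits of equal size differed. Of all genes, 4026 passed without ABT-263-treated mouse 477 and 1735 without mouse 478. Likewise 4169 passed without DMSO-treated mouse 480 and 1824 without mouse 482. The cause of these losses was not tested. Of 160 values of the members under alternatives, 143 kept direction and side of the threshold, 14 lost and 2 gained the call (both Dll4), and 1 reversed (Jag1, -0.063 with length and GC trends removed). Of 334 values of the other named genes, 41 lost the call (with every mouse kept, only Dtx3l, Maml1 and Tle1 did) and 19 reversed, all of them in uncalled genes: Hey2 at -0.088 in thinned counts and -0.10 without length and GC trends, Nrarp at 0.017 with every gene tested, and, without mice 481 and 476, Dll1 at 0.034 and Nrarp at 0.15. With 1 mouse left out, the range was -0.23 to 0.0086 for Dll1, -1.61 to 0.17 for Dlk1, -0.66 to 0.21 for Hes7, -0.22 to 1.01 for Hey2, -0.054 to 0.65 for Heyl, -0.31 to 0.20 for Nrarp and, without a reversal, -1.05 to -0.51 for Hes6. The ratios of pairs passed in 0 of 9 cases under the other pseudocount and without TMM as well, where the exact test has the same limit after adjustment. Library scaling cancels in a ratio within a mouse, except through the added CPM, so leaving out TMM could change little. With 1 mouse left out the exact test of the ratios cannot reach the threshold. No change of ratio reversed, but 6 were over 1.5 times smaller without mouse 476 and 1 (Notch1 to Notch3) without mouse 481. No paired analysis was possible because the groups share no replicate numbers.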
